A study of Mus musculus with 6 samples.

Results

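The genes described here encode ubiquitin ligase substrate adaptors and related ligases of 8 families. They are the genes whose symbol begins with KLHL, KBTBD, FBXO, FBXL, FBXW, TRIM, ASB or DCAF followed by a number, leaving out KLHL24 and FBXO32. The platform annotation gave 197 such genes a probe set of their own, of 19775 genes in all. Of these, 119 had a mean log2 intensity of at least 4 over the 6 arrays and were tested, among 10271 tested genes, while 78 lay under that limit. The tested members comprise 43 TRIM, 19 KLHL, 19 FBXO, 13 DCAF, 8 FBXL, 7 FBXW, 6 ASB and 4 KBTBD symbols. A further 14 symbols, TRIM34 and TRIM39 among them, had only probe sets shared between genes and were not analysed here. Of the 119, the symbols ASB16-AS1 and TRIM67-AS1 denote antisense RNAs, not adaptors, and were kept because the rule goes by symbol.

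Ubiquitin ligases of the cullin type are built on a scaffold that carries a RING subunit at one end and, at the other, an exchangeable adaptor that picks the protein to be ubiquitinated. F-box proteins (FBXO, FBXL and FBXW) bind CUL1 through SKP1, the BTB-kelch proteins (KLHL and KBTBD) bind CUL3 directly, ASB proteins bind CUL5 through elongins, and DCAF proteins bind CUL4 through DDB1. Most TRIM proteins combine both tasks in 1 chain, with a RING domain that recruits the conjugating enzyme and further domains that bind the substrate. Because the adaptor sets which proteins are degraded, a change in its level can alter the stability of its targets without any change in the shared scaffold.

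Expression was measured in subcutaneous tumours that the human lung adenocarcinoma line NCI-H2228, which carries the EML4-ALK fusion gene, formed in SCID mice. The animals received CH5424802 (alectinib), an inhibitor of the ALK kinase, by mouth at 4 mg/kg or 20 mg/kg, or vehicle alone at a dose of 0, and tumours were taken 6 h afterwards. A human expression platform was used, with 2 arrays in each of the 3 groups. Whether both arrays of a group stem from different mice is not in the labels, so the p-values reflect array-to-array spread that may be technical alone. SCID mice lack mature B and T cells but keep other host cells, and GEO's labels name mouse as the organism while the probe sets are for human genes. NCI-H2228 is 1 line, so all values describe tumours of a single origin. In bulk tumour RNA, fewer cells of a type and less RNA per cell cannot be told apart.

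The 6 arrays were alike in their median intensity, 5.02 to 5.15, and in the share of probe sets at the floor of the scale, 39.5% to 40.2%. This median lies close to the floor of 4.58. Over the tested genes the median log2 intensity ran from 8.56 (20 mg/kg replicate 1) to 8.75 (4 mg/kg replicate 2). The epithelial markers EPCAM, KRT19, CDH1 and NKX2-1 were well above the floor in every array. Summed over 10 such markers, intensity ran from 82728 to 91842 with vehicle, from 88627 to 90788 at 4 mg/kg and from 71615 to 81141 at 20 mg/kg. Of these 10, only KRT18 passed the test at 20 mg/kg, where it fell by 1.54 on the log2 scale (SE 0.18, adjusted p = 0.0416). At an unadjusted p under 0.05 in that test, 1 was higher and 4 lower, against 12.7% and 11.5% of all tested genes. Arrays lay entirely above vehicle for 2 and entirely below for 6, against 24.5% and 25.9%. The median change of the 10 was -0.21. Of 9 skeletal muscle markers, 6 stayed within 1 log2 unit of the floor, among them DES, MYOG, CKM and ACTA1. The fibroblast markers LUM, PDGFRA, PDGFRB and THY1 were near the floor, whereas DCN, COL3A1, COL1A2 and COL1A1 averaged intensities of 63.3, 1240, 1952 and 33832. The summed fibroblast list ran from 36018 to 38583 with vehicle, 35907 to 37148 at 4 mg/kg and 35260 to 39720 at 20 mg/kg. Of 8 leukocyte and 5 endothelial markers, 3 and 2 passed the level limit: ITGAM, LYZ and CD79A averaged intensities of 26.1, 51.7 and 82.0, and KDR and PECAM1 96.2 and 402. PTPRC, CD3E, VWF and CDH5 were near the floor. One technical reading moved with treatment: the array's 18S rRNA control gave intensities of 1713 and 4058 with vehicle, 489 and 374 at 4 mg/kg, then 573 and 637 at 20 mg/kg. Its part in the differences from vehicle given below was not tested.

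The comparison of 20 mg/kg with vehicle asks which adaptor transcripts differ after the higher dose of the ALK inhibitor. The test was passed by 4 members, all of them higher: TRIM9, TRIM24, DCAF6 and DCAF12. The test was limma's moderated test on log2 intensity with p-values adjusted over all tested genes at a threshold of 0.05. The 4 make up 3.36% of the 119 members, whereas 4.33% of all tested genes passed in either direction, so the share of members called lies near the background. By direction, 2.26% of all genes rose and 2.07% fell. No member was called lower. At an unadjusted p under 0.05, 23 members were higher and 11 lower, or 19.3% and 9.24% of the members, against 12.7% and 11.5% of all genes; together these were 34 members, or 28.6% against 24.2%. The arrays of the 2 groups did not overlap for 42 members with the higher dose above vehicle (35.3%, against 24.5% of all genes) and for 25 with it below (21%, against 25.9%). A difference of at least 2-fold upwards at 20 mg/kg was seen in 7 members (5.88%, against 3.72% of all genes) and of at least 2-fold downwards in 0 (2.12% of all genes).

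The median log2 change of the tested members at 20 mg/kg was 0.0097, and that of all tested genes was 0. The members' quartiles were -0.11 and 0.35, compared with -0.18 and 0.16 for all genes. The whole range went from -0.80 for DCAF10 to 2.52 for KLHL28. Among the families, the 19 KLHL genes had a median change of 0.20, with 9 members entirely above vehicle and 1 entirely below. The 43 TRIM genes had a median of 0, with 16 above and 12 below. Medians were 0.02 for FBXO, 0.02 for FBXL, -0.07 for FBXW, 0.12 for KBTBD, 0.09 for ASB and -0.02 for DCAF. Only TRIM and DCAF held called members, 2 each, and the difference between families was not tested. At an unadjusted p under 0.05, 8 KLHL genes were higher and 1 lower, and 8 TRIM genes were higher and 4 lower. Of all tested genes, 12.7% were higher and 11.5% lower by that measure. Arrays lay entirely above vehicle in 24.5% of all tested genes and entirely below in 25.9%.

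**Figure D1:**
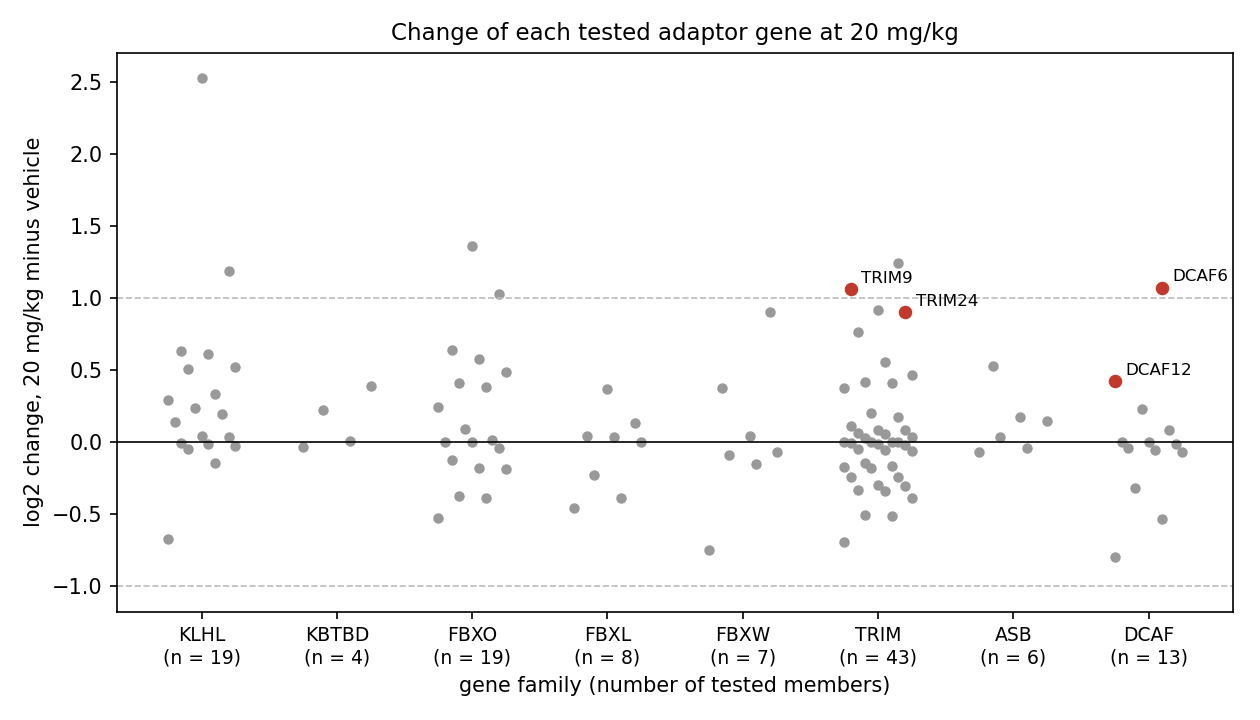
Log2 change of each of the 119 tested genes at 20 mg/kg against vehicle (vertical axis), by family (horizontal axis, with the number of tested members); each point is the difference of 2 group means of 2 arrays. Red points are the 4 genes that passed limma's test, dashed lines mark a 2-fold change, and most points lie close to 0.

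TRIM9 and TRIM24 were the TRIM genes that rose. TRIM9, a ligase best known from neurons, where it acts in axon guidance, read 6.46 and 6.54 (log2 intensity) with vehicle, 6.88 in both 4 mg/kg arrays, with 7.52 and 7.60 at 20 mg/kg. The 3 groups did not overlap, and each dose step lay above the spread within groups. TRIM9 rose 2.09-fold at 20 mg/kg (log2 change 1.06, SE 0.05, 95% interval 0.93 to 1.20, adjusted p = 0.0119). TRIM24, a chromatin reader and coregulator of nuclear receptors that also targets p53, read 7.90 and 7.75 with vehicle, 8.29 and 8.31 at 4 mg/kg, against 8.65 and 8.80 at 20 mg/kg. All arrays were again ordered by dose. TRIM24 rose 1.87-fold at the higher dose (log2 change 0.90, SE 0.08, 95% interval 0.68 to 1.13, adjusted p = 0.0286).

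DCAF6 and DCAF12 were the substrate receptors of the CUL4 ligase that rose. DCAF6, also known as a coactivator of nuclear receptors, read 10.32 and 10.06 with vehicle, 10.53 and 10.61 at 4 mg/kg, then 11.28 and 11.25 at 20 mg/kg. Its arrays were ordered by dose, with the wider step between the 2 doses. DCAF6 rose 2.1-fold at 20 mg/kg (log2 change 1.07, SE 0.10, 95% interval 0.78 to 1.36, adjusted p = 0.0325). DCAF12, which recognises degradation signals at the C-terminal end of proteins, read 9.26 and 9.32 with vehicle, 9.93 and 9.91 at 4 mg/kg, and 9.71 in both 20 mg/kg arrays. Both treated groups lay above vehicle, and the 4 mg/kg arrays were the highest. DCAF12 rose 1.34-fold at 20 mg/kg (log2 change 0.42, SE 0.03, 95% interval 0.33 to 0.51, adjusted p = 0.0246). At 4 mg/kg its change was 0.63, with an adjusted p of 0.0628.

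**Figure D2:**
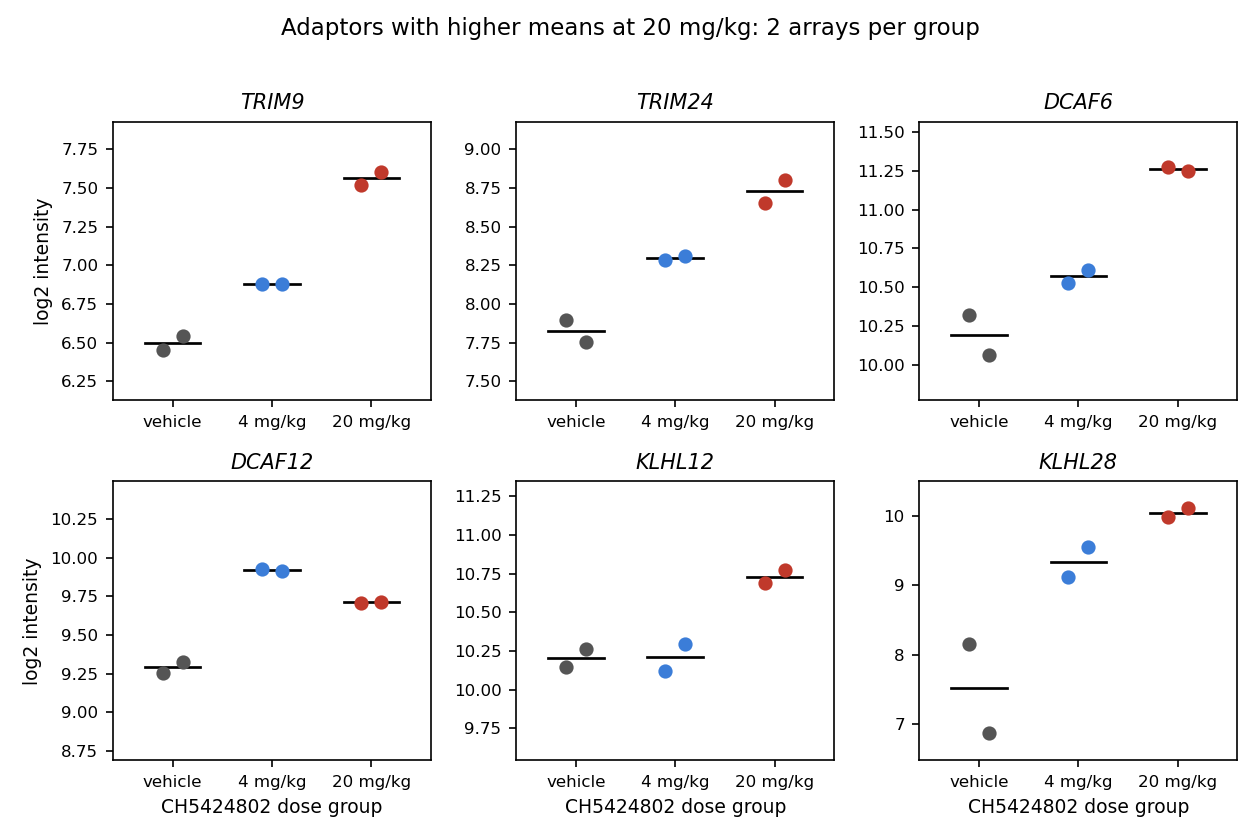
Log2 intensity (vertical axis, with its own range in each panel) of 6 adaptor genes in each array, by dose group (horizontal axis); points are arrays and bars are group means of 2 arrays. TRIM9, TRIM24, DCAF6 and DCAF12 passed limma's test at 20 mg/kg, while KLHL12 and KLHL28 did not, and the 2 vehicle arrays of KLHL28 lie far apart.

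These calls depended on single arrays. Without vehicle replicate 1, 9 members passed at 20 mg/kg, including the 4 above, and 7.81% of all genes did. Without vehicle replicate 2, 3 passed: TRIM9, DCAF12 and KLHL29, the last of them lower (1.01% of all genes). Without either 4 mg/kg array, which contributes to the spread alone, 2 passed: TRIM9 and ASB8 (1.32% of all genes). Without 20 mg/kg replicate 1 or replicate 2, 0 members passed, and among all genes 19 and 5 did. The change of TRIM9 was 1.02 without vehicle replicate 1, 1.11 without vehicle replicate 2 and 1.06 without either 4 mg/kg array. Without either 20 mg/kg array it was 1.10 or 1.02. The split by direction also moved with scaling: centring every array on the median of the tested genes called 18 members higher and 9 lower, and quantile normalization of the columns called 14 higher and 8 lower. Under these scalings 1958 and 1532 of all genes were called, or 19.1% and 14.9%. Of the 4 members called above, TRIM9, TRIM24 and DCAF6 kept their call under both scalings, whereas DCAF12 lost its call under both.

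Among the KLHL proteins, which present substrates to CUL3, KLHL12 came closest to the threshold. KLHL12, which with CUL3 ubiquitinates a COPII coat protein needed for collagen export, read 10.15 and 10.27 with vehicle, 10.12 and 10.30 at 4 mg/kg, with 10.69 and 10.77 at 20 mg/kg. The higher dose lay above all other arrays, and the 4 mg/kg arrays overlapped those of vehicle. Its change at 20 mg/kg was 0.52 (SE 0.09, adjusted p = 0.0671). At 4 mg/kg the change was 0.0014, with a 95% interval from -0.24 to 0.25.

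KLHL28 had the widest difference of all members but also the widest gap between vehicle arrays among those described here. It read 8.16 and 6.88 with vehicle, 9.13 and 9.55 at 4 mg/kg, against 9.98 and 10.11 at 20 mg/kg. Every array at a higher dose exceeded every array at a lower one. The change at 20 mg/kg was 2.52 (SE 0.50, 95% interval 1.10 to 3.95, adjusted p = 0.0886), a 5.75-fold difference that did not pass. It was 3.17 without vehicle replicate 1 (adjusted p = 0.0373) and 1.88 without vehicle replicate 2 (adjusted p = 0.117), so its size depended on which vehicle array was kept.

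Other KLHL genes showed smaller differences that did not pass. KLHL20, a CUL3 adaptor for the death-associated kinase DAPK1, read 8.63 and 8.02 with vehicle, 9.25 and 9.44 at 4 mg/kg, then 9.38 and 9.65 at 20 mg/kg. Both treated groups lay above vehicle and overlapped each other. Its change at 20 mg/kg was 1.19, with an adjusted p of 0.0994. KLHL7, a gene mutated in inherited retinal degeneration, read 10.65 and 10.63 with vehicle, 10.76 and 10.88 at 4 mg/kg, with 11.01 and 11.27 at 20 mg/kg. The groups followed the dose without overlap, with a change of 0.51 (adjusted p = 0.0987). KLHL5 read 11 and 10.81 with vehicle, 11.20 and 11.84 at 4 mg/kg, against 11.30 and 11.18 at 20 mg/kg. All its treated arrays lay above vehicle, and the 2 doses overlapped. KLHL11 read 9.77 and 9.76 with vehicle, 9.88 in both 4 mg/kg arrays, then 9.92 and 10.09 at 20 mg/kg, a change of 0.24 at the higher dose (adjusted p = 0.14).

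KLHL29 was the KLHL gene whose arrays at 20 mg/kg lay wholly under those with vehicle. It read 7.79 and 8.10 with vehicle, 7.71 in both 4 mg/kg arrays and 7.28 in both 20 mg/kg arrays. The order by dose was the reverse of that in KLHL28. The change of KLHL29 at 20 mg/kg was -0.67 (SE 0.12, adjusted p = 0.0744), which did not pass with all arrays but did when either vehicle array was left out (-0.83 and -0.51). Among the 4 KBTBD genes, KBTBD6, which with KBTBD7 targets the exchange factor TIAM1, read 7.39 and 6.96 with vehicle, 7.45 and 7.49 at 4 mg/kg, with 7.42 and 7.70 at 20 mg/kg. Treated arrays lay above vehicle by a margin smaller than the gap between the vehicle arrays, and the change was 0.39 (adjusted p = 0.338).

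No member of the 3 F-box families passed in any comparison. At 20 mg/kg against vehicle, 4 of the 34 F-box genes were higher and 4 lower at an unadjusted p under 0.05, shares near the 12.7% and 11.5% of all genes. FBXO3 read 8.51 and 8.02 with vehicle, 8.91 and 9.70 at 4 mg/kg, against 9.54 and 9.70 at 20 mg/kg. All treated arrays lay above both vehicle arrays, with a change of 1.36 at the higher dose (adjusted p = 0.128). FBXW2 read 9.88 and 9.61 with vehicle, 10.36 and 10.70 at 4 mg/kg, then 10.66 and 10.64 at 20 mg/kg. The doses overlapped each other above vehicle, and the change at 20 mg/kg was 0.91 (SE 0.16, adjusted p = 0.0759). FBXL20, the receptor for a synaptic scaffold protein, read 8.73 and 8.97 with vehicle, 8.53 and 8.73 at 4 mg/kg, with 9.21 and 9.23 at 20 mg/kg. The higher dose stood above the other 4 arrays, which overlapped, and the change against vehicle was 0.37 (adjusted p = 0.182).

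Several F-box genes had lower values at 20 mg/kg. FBXO45, which pairs with the large ligase MYCBP2, read 10.86 and 10.97 with vehicle, 10.50 and 10.80 at 4 mg/kg, against 10.37 and 10.40 at 20 mg/kg. Its groups descended with dose and did not overlap, and the change was -0.53 (SE 0.12, adjusted p = 0.109). FBXW5, which targets the centriole protein SASS6, read 9.68 and 10.19 with vehicle, 9.38 in both 4 mg/kg arrays, then 9.08 and 9.30 at 20 mg/kg. It followed the same descending order, with a change of -0.75 (SE 0.20, adjusted p = 0.14). FBXL5, which senses iron and marks the iron regulatory protein IREB2 for degradation, read 11.39 and 11.41 with vehicle, 11.04 and 11.40 at 4 mg/kg, with 10.85 and 11.03 at 20 mg/kg. Its higher dose lay under all other arrays, and of the 4 mg/kg arrays replicate 2 lay at the vehicle level and replicate 1 close to the higher dose. The change of FBXL5 was -0.46 (adjusted p = 0.182). FBXL13 read 8.44 and 8.36 with vehicle, 7.91 and 8.08 at 4 mg/kg, against 7.95 and 8.08 at 20 mg/kg. Both doses were under vehicle to a like extent, -0.41 and -0.39 (adjusted p = 0.177 and 0.104), with a difference between doses of 0.02.

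FBXW7, the adaptor for cyclin E and MYC, showed little difference: it read 7.42 and 7.57 with vehicle, 7.26 and 7.42 at 4 mg/kg, and 7.42 in both 20 mg/kg arrays. Its change at 20 mg/kg was -0.07, with a 95% interval from -0.31 to 0.16. FBXO28 read 11.46 and 11.42 with vehicle, 11.23 and 11.70 at 4 mg/kg, then 11.16 and 10.98 at 20 mg/kg. At the higher dose both arrays lay under vehicle (change -0.38, limma adjusted p = 0.349). By its probe sets of rank 2, 3 and 4 by level FBXO28 was at -0.75, 0.08 and -0.31 at 20 mg/kg.

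Among the remaining TRIM genes, TRIM55, known as MURF2 in striated muscle, read 6.64 and 6.34 with vehicle, 7.0 in both 4 mg/kg arrays, with 7.16 and 7.35 at 20 mg/kg. Its groups ascended with dose, and the change of 0.77 at the higher dose did not pass (SE 0.13, adjusted p = 0.0745). TRIM59 read 7.38 and 7.23 with vehicle, 8.43 and 8.95 at 4 mg/kg, against 8.27 and 8.83 at 20 mg/kg. Both doses stood above vehicle by over 2-fold (log2 1.39 and 1.24, adjusted p = 0.175 and 0.109) and overlapped each other. TRIM2, a ligase for a neurofilament protein, read 11.54 and 10.76 with vehicle, 12.24 and 12.42 at 4 mg/kg, then 12.06 and 12.08 at 20 mg/kg. The treated arrays were all higher than vehicle, and the vehicle arrays differed by nearly as much as the change of 0.92 (adjusted p = 0.182).

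TRIM27, also called RET finger protein, read 9.96 and 10.27 with vehicle, 9.76 and 9.79 at 4 mg/kg, with 9.72 and 9.49 at 20 mg/kg. The groups descended with dose, with a change of -0.51 (adjusted p = 0.147). TRIM42 read 6.21 and 6.16 with vehicle, 5.94 and 5.85 at 4 mg/kg, against 5.83 and 5.94 at 20 mg/kg. Both doses lay below vehicle and overlapped, with a change of -0.30 at 20 mg/kg (adjusted p = 0.0839). TRIM14, which acts in antiviral signalling at mitochondria, read 9.64 and 9.42 with vehicle, 9.28 and 9.76 at 4 mg/kg, then 8.71 and 8.97 at 20 mg/kg. The higher dose lay beneath all other arrays, with a change of -0.69 (adjusted p = 0.178). TRIM28, the corepressor that KRAB zinc finger proteins recruit, read 11.29 and 11.59 with vehicle, 11.27 and 11.51 at 4 mg/kg, with 10.99 and 11.12 at 20 mg/kg. Its arrays at 20 mg/kg were the lowest, 0.39 under vehicle on average, and did not pass. TRIM29, an epithelial TRIM protein without a RING domain, read 13.62 and 14.03 with vehicle, 13.50 and 13.69 at 4 mg/kg, against 13.81 and 13.90 at 20 mg/kg. Its change at 20 mg/kg was 0.03, with a 95% interval from -0.46 to 0.53. TRIM8 read 11.48 and 11.70 with vehicle, 11.10 and 11.53 at 4 mg/kg, then 11.38 and 11.31 at 20 mg/kg, with a change of -0.24 and overlap between vehicle and the lower dose.

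Some TRIM genes are induced by interferon and restrict viruses. Of 9 such genes on the list used here, 8 were tested and limma called 0 in any comparison; at an unadjusted p under 0.05, 2 were higher and 1 lower at 20 mg/kg. By the same measure 12.7% of all tested genes were higher and 11.5% lower, and 4.33% passed limma's test at 20 mg/kg. The median change of these 8 TRIM genes at 20 mg/kg was 0.12, against 0 for all genes. TRIM56 read 6.86 and 6.56 with vehicle, 6.86 in both 4 mg/kg arrays and 7.14 and 7.40 at the higher dose, which stood above the rest (change 0.55, adjusted p = 0.133). TRIM25, the ligase that activates the RNA sensor RIG-I, read 9.69 in both vehicle arrays, 9.60 and 9.69 at 4 mg/kg, with 9.95 and 9.82 at 20 mg/kg, a change of 0.20 (adjusted p = 0.173). TRIM5, which recognises retroviral capsids, read 8.53 and 7.89 with vehicle, 9.07 and 9.33 at 4 mg/kg, against 8.61 and 8.74 at 20 mg/kg. Its 4 mg/kg arrays were the highest and its 20 mg/kg arrays lay only slightly above vehicle replicate 1. TRIM21, a cytosolic antibody receptor, read 9.49 and 9.67 with vehicle and between 9.42 and 9.46 in the 4 treated arrays. Of 17 tested interferon-induced genes outside the TRIM family, 0 passed; at an unadjusted p under 0.05, 1 was higher and 2 lower at 20 mg/kg, and their median change was 0.05.

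Of the other CUL4 receptors, DCAF13, which also acts in ribosome assembly, read 10.99 and 10.80 with vehicle, 10.77 and 11.14 at 4 mg/kg, then 10.31 and 10.42 at 20 mg/kg. The higher dose lay below all other arrays, by 0.53 against vehicle and 0.59 against 4 mg/kg. Neither difference passed (limma adjusted p = 0.165 and 0.264). By the next brightest probe set of DCAF13 the higher dose was at -0.11 against vehicle, with overlapping arrays, and at -0.48 against 4 mg/kg. DCAF16 read 8.64 and 8.69 with vehicle, 9.20 and 9.73 at 4 mg/kg, with 8.73 and 9.05 at 20 mg/kg. Its lower dose was the highest group by this probe set, whereas its next brightest was at -0.33 at 4 mg/kg against vehicle. DCAF7 ran from 10.28 to 10.45 over all 6 arrays, and its change at 20 mg/kg had a 95% interval from -0.09 to 0.27. Among the ASB genes, ASB8 read 8.98 and 9.01 with vehicle, 8.84 and 9.21 at 4 mg/kg, against 9.54 and 9.51 at 20 mg/kg. The higher dose stood above the other arrays, with a change of 0.53 (SE 0.14, adjusted p = 0.131) that passed when either 4 mg/kg array was left out.

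**Figure D3:**
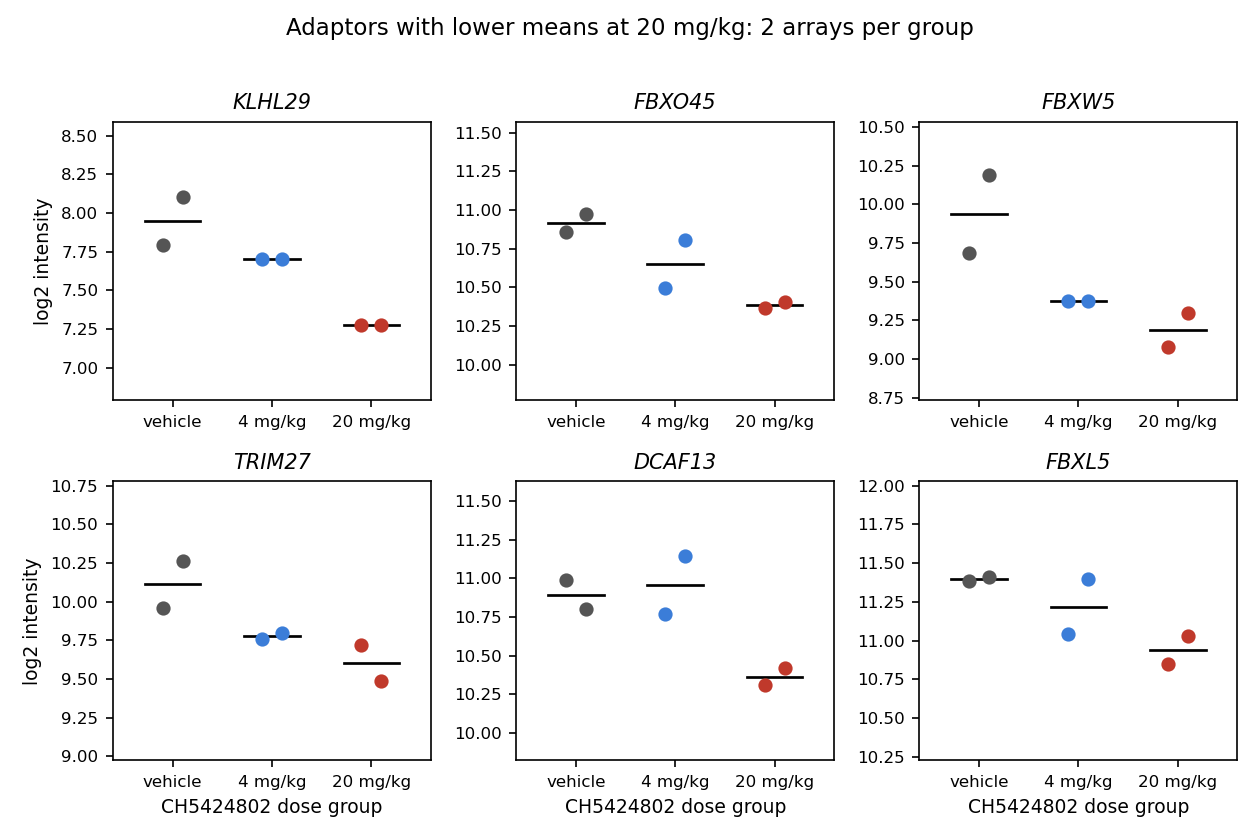
Log2 intensity (vertical axis, with its own range in each panel) of 6 adaptor genes in each array, by dose group (horizontal axis); points are arrays and bars are group means of 2 arrays. In all 6 both arrays at 20 mg/kg lie under both vehicle arrays, and none of the 6 passed limma's test; the 4 mg/kg arrays lie between the groups for KLHL29, FBXO45, FBXW5 and TRIM27.

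Comparing 4 mg/kg with vehicle asks whether the lower dose already differs, and it uses the same vehicle arrays as the comparison above. limma called 0 members at 4 mg/kg, against 0.0584% of all genes, 0.0292% higher and 0.0292% lower. At an unadjusted p under 0.05, 19 members were higher and 3 lower, or 16% and 2.52%, against 12.2% and 4.76% of all genes. Arrays did not overlap for 34 members above vehicle (28.6%, against 22.8% of all genes) and 15 below (12.6%, against 14.8%). The median change of the members was 0, as for all genes. None was at least 2-fold lower (0.292% of all genes), and 6 were at least 2-fold higher (5.04%, against 2.64% of all genes): KLHL28 (log2 1.82), TRIM59 (1.39), TRIM2 (1.18), FBXO5 (1.11), FBXO3 (1.04) and KLHL20 (1.02). Without vehicle replicate 1, 5 members passed, where 4.62% of all genes did, and without 4 mg/kg replicate 1, 2 passed, where 1.52% did. Median-centring called 12 members, 11 of them higher, where 7.46% of all genes were called.

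For the genes that rose at 20 mg/kg, the changes at 4 mg/kg were 0.38 for TRIM9 (adjusted p = 0.146), 0.47 for TRIM24 (adjusted p = 0.166) and 0.38 for DCAF6 (adjusted p = 0.221). TRIM6 was highest at the lower dose: it read 7.48 and 7.60 with vehicle, 8.11 and 8.24 at 4 mg/kg, then 7.63 and 7.62 at 20 mg/kg. Its change was 0.64 at 4 mg/kg (adjusted p = 0.129) and 0.09 at 20 mg/kg, and the doses differed by -0.55 (adjusted p = 0.1). FBXO5, or EMI1, the inhibitor of the anaphase-promoting complex, read 6.76 and 6.39 with vehicle, 7.30 and 8.06 at 4 mg/kg, with 6.94 and 7.48 at 20 mg/kg. The spread between its 4 mg/kg arrays was wider than the difference between the dose means, and the change of 1.11 did not pass (adjusted p = 0.277). FBXO46 read 8.12 and 8.19 with vehicle, 7.78 and 7.88 at 4 mg/kg, against 8.12 and 8.23 at 20 mg/kg. It lay below vehicle at the lower dose alone, by 0.33 (adjusted p = 0.171). FBXO25 and FBXL12 were also lowest at 4 mg/kg, by 0.40 and 0.08 under vehicle (adjusted p = 0.316 and 0.351).

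The direct comparison of 20 mg/kg with 4 mg/kg shows where the doses part. limma called 0 members, against 0.37% of all genes, 0.127% higher and 0.243% lower. No member differed by 2-fold, whereas 0.584% of all genes were at least 2-fold higher and 1.3% at least 2-fold lower. At an unadjusted p under 0.05, 12 members were higher and 5 lower at 20 mg/kg, or 10.1% and 4.2%, against 4.62% and 8.79% of all genes. Arrays did not overlap for 25 members above (21%, against 13.6% of all genes) and 25 below (21%, against 22.8%). The largest of these differences with the higher dose above were 0.71 for KLHL28, 0.69 for DCAF6 (adjusted p = 0.121) and 0.68 for TRIM9 (SE 0.05, adjusted p = 0.0505). FBXL20 was 0.59 higher (adjusted p = 0.182) and KLHL12 0.52 higher (adjusted p = 0.139). On the lower side, TRIM14 differed by -0.68 (adjusted p = 0.33), TRIM44 by -0.42 (adjusted p = 0.381) and DCAF12 by -0.21 (adjusted p = 0.124). Without 4 mg/kg replicate 1, 2 members passed, where 2.12% of all genes did. Median-centring called 6 members, all higher, and quantile normalization called 5, 4 of them higher, where 4.81% and 3.24% of all genes were called.

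Over the 3 groups together, every array followed the dose upwards for 9 members: TRIM9, TRIM24, TRIM55, DCAF6, KLHL7, KLHL11, KLHL28, FBXO34 and FBXO38. That is 7.56% of the members, against 4.61% of all tested genes. Every array followed it downwards for 5: KLHL29, FBXO6, FBXO45, FBXW5 and TRIM27, or 4.2% against 5.24%. FBXO34 read 9.64 and 9.88 with vehicle, 10.02 and 10.22 at 4 mg/kg, then 10.31 and 10.38 at 20 mg/kg. Its change at the higher dose was 0.58 and did not pass (adjusted p = 0.094).

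Both genes that the rule leaves out exceeded every tested member of their own family in their change at 20 mg/kg. KLHL24, a BTB-kelch protein that targets keratin 14 in skin, read 9.44 and 9.49 with vehicle, 10.82 and 10.80 at 4 mg/kg, with 12.25 and 12.37 at 20 mg/kg. By this probe set, its brightest, it rose at 20 mg/kg (log2 2.84, adjusted p = 0.00757) and at 4 mg/kg (1.34, adjusted p = 0.0485). By its probe sets of rank 2, 3 and 4 by level KLHL24 was at 1.89, 2.49 and 3.74 at 20 mg/kg. At 4 mg/kg that of rank 2 was at 0.06, with arrays overlapping those of vehicle. Those of rank 3 and 4 lay above vehicle there, the former by 0.59. That of rank 5 was at 0.10 at 20 mg/kg and 0 at 4 mg/kg. The rise at 4 mg/kg thus depended on the probe set. FBXO32, or atrogin-1, a ligase of muscle atrophy, read 8.97 and 9.19 with vehicle, 9.04 and 9.45 at 4 mg/kg, against 11.09 and 10.84 at 20 mg/kg. It rose at 20 mg/kg (log2 1.88, adjusted p = 0.036), while its 4 mg/kg arrays overlapped those of vehicle. Of the other 5 ligases on the muscle atrophy list, FBXO21 and FBXO30 were tested and did not pass, at -0.12 and -0.04. The rest lay under the level limit. By its next brightest probe set FBXO21 was at 0.40, with 10.51 and 10.29 for vehicle and 10.78 and 10.82 at 20 mg/kg.

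Most members have more than 1 probe set, and the rule takes the brightest. The 119 together had 317 single-gene probe sets; 90 of them had at least 2, and 52 had a next brightest one with a mean log2 of at least 4. TRIM24 was higher at 20 mg/kg by both of its probe sets above the floor, 0.90 and 1.14, of which the second did not pass (adjusted p = 0.173). Both are of the _x_at kind, whose probes can match other transcripts, and with the mean of all its probe sets TRIM24 was at 0.51 and lost its call (adjusted p = 0.0602). DCAF6 gave 1.07 by the brightest and 0.33 by the next, which did not pass (adjusted p = 0.521). For TRIM9 the next probe set lay lower, at a mean of 3.76, and gave a change of -0.0016 at 20 mg/kg. DCAF12 had a single probe set. FBXL20 was higher by 3 probe sets, 0.37, 0.53 and 1.24, and FBXO45 and TRIM27 were lower by their first 2, -0.53 and -0.34 for the former and -0.51 and -0.52 for the latter.

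Elsewhere the probe sets of 1 gene differed. FBXO3 was at 1.36 by its brightest probe set and at -0.06 by the next, KLHL20 at 1.19 against 0.09 and -0.03, TRIM2 at 0.92 against -0.08 and 0.06, and FBXW2 at 0.91 against -0.24. ASB8 was at 0.53 and -0.19, and KLHL7 at 0.51, -0.74 and 0.20. TRIM14 was at -0.69 against -0.08 and -0.10, and TRIM33 at 0.18 against -0.02, 0 and 0.15. KLHL28 had 1 probe set above the floor region. Of the 7 members at least 2-fold higher at 20 mg/kg, 4 had vehicle replicate 2 at least 0.3 below vehicle replicate 1. Over all tested members such a gap was seen in 15 (12.6%, against 11.3% of all genes), and the opposite gap in 14 (11.8%, against 12.4%).

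**Figure D4:**
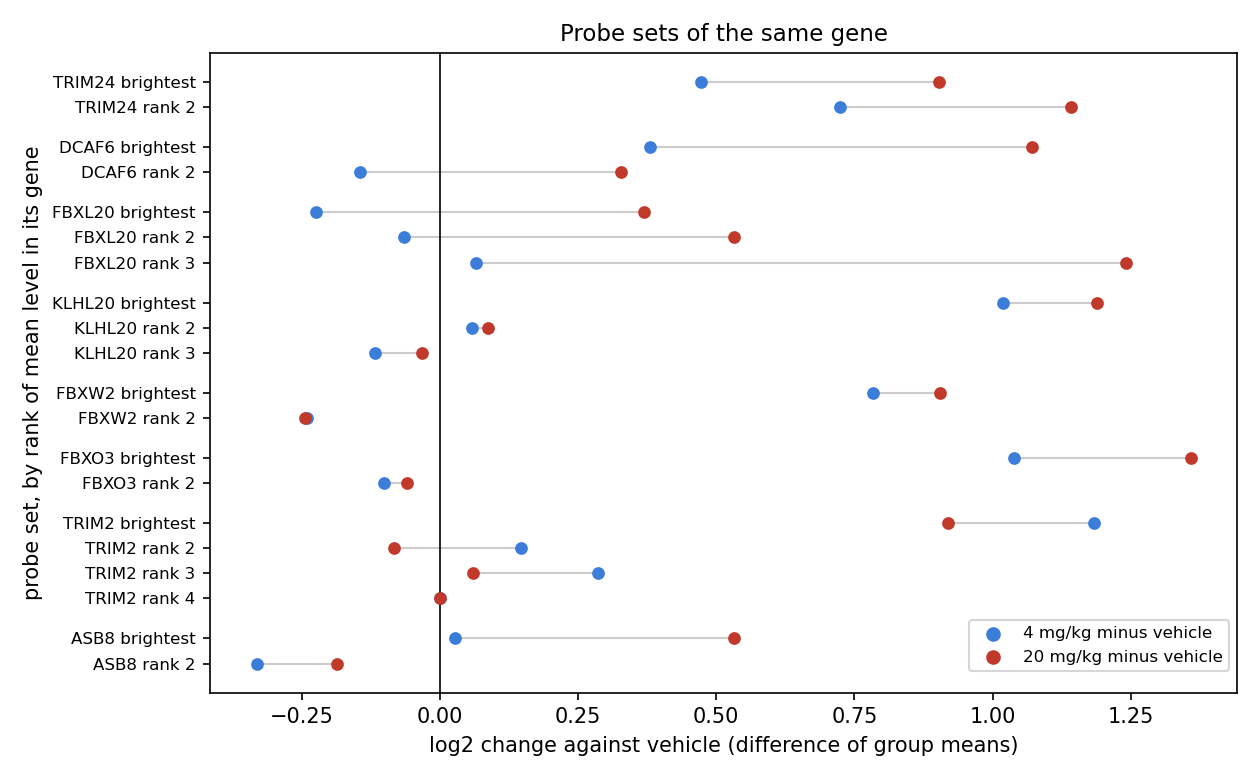
Log2 change against vehicle (horizontal axis) at 4 mg/kg (blue) and 20 mg/kg (red) for the probe sets of 8 adaptor genes (vertical axis), by rank of mean level within the gene; each point is a difference of means of 2 arrays and lines join the 2 doses. The probe sets of TRIM24 and FBXL20 share their direction at 20 mg/kg, while FBXW2, FBXO3, TRIM2 and ASB8 lie on both sides of 0.

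Some members showed almost no difference by the probe set used. In 13 of the 119 the 6 arrays spanned less than 0.1 on the log2 scale (10.9%, against 12.8% of all genes), among them TRIM13, TRIM15, TRIM35, FBXO30, DCAF17 and ASB6. In 21 they spanned at least 1 (17.6%, against 16.4%). DCAF17 read 5.72 in every array by this probe set, while its next brightest was at 0.27 at 4 mg/kg and 0.05 at 20 mg/kg against vehicle. TRIM13 was at 0.32 at 20 mg/kg by its next brightest probe set. That probe set read 7.33 and 7.02 with vehicle and 7.48 and 7.52 at 20 mg/kg. Both arrays of at least 1 group were equal in 43 members (36.1%, against 32.3% of all genes) and those of all 3 groups in 3 (2.52%, against 5.17%), which lowers the spread that the test sees. The members nearest the level limit were ASB6, with arrays at 4.02 to 4.10, and DCAF8L2, at 4.19, on the tested side and FBXO41 and KLHL14, at 3.96 and 3.91 in every array, on the other. Of the 78 members under the limit, 66 stayed within 1 log2 unit of the floor (2.19) in every array, and 37 sat at the floor in all 6. None of the tested members had a group mean under 4, and 1 of the 78, KBTBD8, had a group mean that reached it.

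The shared parts of these ligases form lists chosen for their roles. For reference, 4.33% of all tested genes passed at 20 mg/kg against vehicle, and 12.7% were higher and 11.5% lower at an unadjusted p under 0.05. Of 9 tested cullin scaffolds and RING subunits, limma called 0 at 20 mg/kg; at an unadjusted p under 0.05, 1 was higher and 1 lower, with a median change of 0.10. CUL4B, the scaffold that DCAF proteins use with CUL4A, read 10.06 and 9.76 with vehicle, 10.21 and 10.53 at 4 mg/kg, then 10.63 and 11.01 at 20 mg/kg, a change of 0.91 (adjusted p = 0.112). CUL3, the scaffold of KLHL proteins, was at 0.30 and CUL1, that of F-box proteins, at -0.37, and neither passed. Of the 5 linkers between scaffold and adaptor, 0 passed; 1 was lower at an unadjusted p under 0.05, and the median was -0.21. SKP1, the F-box linker, was at 0.07 and DDB1, the DCAF linker, at -0.32. Of 18 tested genes for NEDD8, the modifier that activates cullins, and for adaptor exchange, 0 passed; 1 was higher and 2 lower at an unadjusted p under 0.05, and the median was -0.12. DCUN1D4 came closest at -0.62 (adjusted p = 0.072). None of 6 tested conjugating enzymes passed under limma, 0 did so at an unadjusted p under 0.05, and their median was -0.06.

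Adaptors of the same ligases under other names gave 1 rise and 1 fall among 23 tested at 20 mg/kg, with a median change of 0.02. In that test 2.26% of all tested genes were called higher and 2.07% lower. SPOP, a MATH-BTB adaptor of CUL3, read 10.69 and 10.58 with vehicle, 11.34 and 11.37 at 4 mg/kg, with 11.74 and 11.56 at 20 mg/kg. Its arrays ascended with dose, and it rose by 1.01 at the higher one (SE 0.08, adjusted p = 0.0246). ENC1, a BTB-kelch protein first described in the nervous system, read 10.25 and 10.18 with vehicle, 9.97 and 10.09 at 4 mg/kg, against 9.02 and 9.04 at 20 mg/kg. It fell by 1.18 against vehicle (SE 0.05, adjusted p = 0.012) and by 1.0 against 4 mg/kg (adjusted p = 0.0346). RHOBTB3 was at 0.98 (adjusted p = 0.0643), and SOCS3, a cytokine-induced adaptor of CUL5 that inhibits JAK signalling, was at -2.66 (adjusted p = 0.0748), with vehicle arrays at 9.08 and 9.93 and 20 mg/kg arrays at 7.01 and 6.69. CRBN, the receptor that thalidomide binds, was at 0.92 and SKP2, the adaptor for the cell cycle inhibitor p27, at 0.33, and neither passed.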

How the data were processed

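The authors deposited linear intensity values of 54675 probe sets in 6 arrays; the submitters' processing notes name GCRMA and R 2.10.0. This method corrects background by probe sequence, normalizes by quantiles and summarises by median polish, which can give equal values in different arrays and understates changes near the floor. The set of arrays normalized jointly is not given in the sources used. Intensities were converted to log2. The platform annotation, which can be old, gave 41097 probe sets 1 gene, 1801 several and 11777 none. Each gene was represented by its brightest single-gene probe set over the 6 arrays, kept at a mean log2 of at least 4.

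A model over all 10271 genes and 3 groups was fitted with limma 3.58.1 (lmFit, eBayes) in R 4.3.3, two-sided, with Benjamini-Hochberg adjustment over all genes within each comparison. It had 3 residual and 0.723 prior degrees of freedom, and SEs are moderated; precision is limited by the number of arrays. All fold changes and SEs come from this model, with n = 2 arrays per group. The script was tested on simulated data. Arrays count as equal within 1e-06 log2 units.

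Members and lists were chosen with earlier results of these data known. Named genes are members past the test, up to 6 in each direction with the smallest p among those whose arrays do not overlap, the 8 with the highest mean level, the largest change of each family, those nearest the level limit, the 2 genes left out by the rule and up to 4 genes of each list. DCAF7, DCAF10, DCAF16, DCAF17, FBXO5, FBXO6, FBXO8, FBXO34, FBXO38, FBXL18, FBXW7, KBTBD8, KLHL2, KLHL11, KLHL15, KLHL20, TRIM5, TRIM13, TRIM15, TRIM21, TRIM33, TRIM35, CUL1, SKP2 and CRBN were named after their values were seen. Of the marker lists, 3 of 8 leukocyte, 2 of 5 endothelial, 4 of 8 fibroblast and 3 of 9 muscle genes were tested; limma called 0 of them, and 0 had an unadjusted p under 0.05 at 20 mg/kg against vehicle. Alternatives covered the level filter, scaling, a pseudocount, the choice of probe set, the test, a replicate block and leaving out each array. No sequences or genome coordinates were used here, and the search of promoters for motifs was not run.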

Additional observations from a re-analysis of the deposited data

How the results depend on the processing

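At 20 mg/kg against vehicle, 4 members passed; the count was 1 without the level filter, 22 after quantile normalization, 27 after centring arrays on the median of tested genes, 2 with the next brightest probe sets and 9 without genes whose arrays are equal in all groups (an alternative chosen after seeing the data). It was 4, the same genes, with a filter at 5, a pseudocount of 16, or trend and robust moderation. With the mean of all probe sets it was 5: TRIM24 lost its call and FBXL20 and FBXO8 gained one. Without _x_at or _s_at probe sets it was 3, TRIM9, DCAF12 and DCAF10, as TRIM24 and DCAF6 kept no probe set past the level filter. DCAF10 was higher there, by a probe set other than its brightest. Without the level filter TRIM9 alone passed. At 4 mg/kg it went from 0 to 12 after centring. For 20 against 4 mg/kg it went from 0 to 1 with a filter at 5, to 5 after quantile normalization, to 6 after centring, to 1 without _x_at or _s_at probe sets and to 1 without the equal genes. Leaving out single arrays gave 0 to 9, 0 to 5 and 0 to 2 members for the 3 comparisons. Centring moves single arrays by -0.059 to 0.137, the most for 4 mg/kg replicate 2. With the main settings 4.33% of all tested genes passed at 20 mg/kg, and the shares under centring and quantile normalization are given above. For the other choices of filter, probe set, pseudocount, test and block no such share is given, so their counts describe the members alone.

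The members' median change at 20 mg/kg was -0.022 after centring, and 0 to 0.0348 without single arrays. At 4 mg/kg it was -0.042 after quantile normalization, -0.0988 after centring and 0.0286 with the mean of probe sets, and 0 to 0.0365 without single arrays. Between doses it was 0.0435 and 0.067 under the first 2, and -0.0138 to 0.0419 without single arrays.

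With the next brightest probe set ASB8 was at -0.19, FBXO3 at -0.060 and FBXW2 at -0.24 at 20 mg/kg, and FBXW2 at -0.24 at 4 mg/kg; without _x_at and _s_at probe sets FBXW2 was at -0.24 at both doses. Why the probe sets differ was not tested. Of the named members' other values, 608 stayed on their side of the threshold, 27 lost and 52 gained a call.

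The labels do not say whether replicate numbers pair the arrays. Same-numbered arrays' deviations correlated at 0.146 for vehicle and 4 mg/kg, -0.118 for vehicle and 20 mg/kg and 0.127 for the 2 doses. These values are small, but they cannot show that the arrays are unpaired. With the replicate block 2 members passed at 20 mg/kg, TRIM9 as higher and DCAF10 as lower, and 0 in the other comparisons. This DCAF10 change was -0.80 by its brightest probe set, opposite to its call without _x_at or _s_at probe sets. The check of updated symbols was not run. With 2 arrays a group, differences under about the spread between arrays could not be resolved.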

Other observations

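DCAF10, singled out after its values were seen, gave opposite readings by different probe sets. Its brightest probe set read 9.08 and 9.91 with vehicle, 8.22 and 9.09 at 4 mg/kg, then 8.28 and 9.11 at 20 mg/kg, so that replicate 2 lay above replicate 1 in each group and the change at 20 mg/kg was -0.80 (95% interval -2.33 to 0.73, limma adjusted p = 0.464). Its probe set of rank 3 by level read 7.84 and 7.61 with vehicle, 8.63 and 8.62 at 4 mg/kg, then 8.75 and 8.82 at 20 mg/kg, without overlap, a change of 1.06 that passed when probe sets ending in _x_at or _s_at were left out (adjusted p = 0.0275). FBXL18 likewise had replicate 2 above replicate 1 in all groups, at 5.17 and 5.93, 5.03 and 5.79, and 5.10 and 5.54.

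TRIM33, which acts on SMAD4 in TGF-beta signalling, read 8.42 and 8.32 with vehicle and between 8.55 and 8.56 in all 4 treated arrays, a change of 0.18 at both doses (adjusted p = 0.104 and 0.178). KLHL2 was at 0.63 at both doses, with vehicle arrays at 9.60 and 9.20 and treated arrays from 9.92 to 10.14. KLHL15 read 7.09 and 6.94 with vehicle and from 7.43 to 7.82 in the treated arrays. For these 3 genes the lower dose lay as far from vehicle as the higher one or nearly so, and none passed.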
